A study of Mus musculus with 9 samples.

Results

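The expression of 6 genes of the growth cartilage was followed: Col10a1, Mmp13, Snorc and Panx3, which mark hypertrophic or prehypertrophic cartilage, and Pthlh and Pth1r, the ligand and the receptor of the PTHrP loop. They were chosen by name from what is known of endochondral bone, with earlier results of these data known, out of 43548 gene identifiers in the table. All 6 had a mean FPKM (fragments mapped to a gene, scaled by its length and by the size of the library) high enough to be tested. The study itself had singled out Col10a1, Mmp13 and Snorc from these libraries for the comparison of the MCAGF8 vault with the control base, so their direction in that comparison is not independent evidence.

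RNAseq was performed on 3 tissues of mouse embryos of mixed strain at E14.5, when the bones of the skull vault begin to form. The MCAGF8 vault is the cranial vault of Msx2Cre; CAGFgf8 mutants, in which Msx2-Cre, active in the surface ectoderm, turns on a conditional allele that overexpresses Fgf8b. The control vault and the control base, the cartilaginous cranial base, came from embryos that are labelled wildtype and that the study describes as lacking Cre; the conditional mice were kept as a homozygous colony, so by this cross the controls carry the allele unrecombined. The skin, where the allele is active, was peeled off before the tissue was taken. In each group 9 tissue samples were merged, 3 to a pool, which gave 3 libraries per group and 9 in all. Each p-value given here therefore measures the spread between pools. The base was taken from the control embryos after their vault, so both control tissues can share embryos, which the fit did not model, and how embryos were assigned to pools was not stated. In whole tissue, fewer cells of a type and less RNA per cell cannot be told apart.

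In endochondral bones, chondrocytes stop dividing, enlarge and become hypertrophic, and then make a matrix of type X collagen that is later removed and replaced by bone. Parathyroid hormone-related protein, encoded by Pthlh, is secreted by chondrocytes near the ends of the cartilage, acts on the receptor encoded by Pth1r and holds cells back from hypertrophy. Prehypertrophic cells make Indian hedgehog (Ihh), which in turn keeps Pthlh expressed, so that both signals set the pace at which cartilage matures. The bones of the vault form by intramembranous ossification, in which mesenchyme turns directly into bone.

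On GRCm38, Col10a1 is at chr10:34389981-34397085 on the plus strand, Mmp13 at chr9:7272514-7283331 on the plus strand, Snorc at chr1:87470271-87475482 on the plus strand, Panx3 at chr9:37659902-37669235 on the minus strand, Pthlh at chr6:147252101-147264183 on the minus strand and Pth1r at chr9:110722085-110747145 on the minus strand. All are protein coding. Col10a1 overlaps Nt5dc1 and Pth1r overlaps Myl3, a muscle gene, each on the opposite strand, and whether the counting used the strand was not stated. Nt5dc1 was between 3.66 and 6.04 FPKM in every library. Myl3 ranged from 1.41 to 67.9 FPKM.

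The promoters of Col10a1 and Mmp13 are shown because these genes had the largest and second largest ratios of mean FPKM between the control base and the MCAGF8 vault among the members. Each sequence, from RefSeq for GRCm38.p6, is the 250 bases before the start site on the plus strand (Col10a1, chr10:34389731-34389980; Mmp13, chr9:7272264-7272513), with motifs in capitals.
Col10a1: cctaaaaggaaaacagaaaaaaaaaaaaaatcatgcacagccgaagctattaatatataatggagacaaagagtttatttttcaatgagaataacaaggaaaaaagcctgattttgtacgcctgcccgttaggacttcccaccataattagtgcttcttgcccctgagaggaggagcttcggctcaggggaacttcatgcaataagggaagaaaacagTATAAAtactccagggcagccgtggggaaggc
Mmp13: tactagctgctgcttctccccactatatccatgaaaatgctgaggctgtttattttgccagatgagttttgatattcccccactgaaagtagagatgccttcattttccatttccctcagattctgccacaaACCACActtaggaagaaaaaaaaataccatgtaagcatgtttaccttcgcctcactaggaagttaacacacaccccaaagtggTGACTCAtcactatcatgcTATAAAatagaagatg
The motifs searched on both strands were the RUNX core TGTGGT, the AP-1 site TGANTCA and the TATA box TATAAA, and positions are counted from 1 at the 5′ end of the sequence. The Col10a1 promoter held the TATA box at 219 to 224. The Mmp13 promoter held the RUNX core, read as ACCACA on the strand shown, at 133 to 138, the AP-1 site at 216 to 222 and the TATA box at 235 to 240. Over 32851 RefSeq promoters, each 250 bases before to 50 after a start, 16.8% held the RUNX core, 7.81% the AP-1 site and 13.6% the TATA box. None of these letters occurred in the window of Pthlh or in those of the 3 start sites of Pth1r. GC content of the window was 44.3% for Col10a1 and 43.7% for Mmp13, against a median of 52.7% over all promoters, 74% for Pthlh and 54.3% to 69.3% for Pth1r. A match of letters is a description of the sequence and does not show that a factor binds there.

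Depth cannot be read from the deposited FPKM, so no counting error is given. The sum of FPKM per library ranged from 793249 to 1315981, and 16006 to 17281 genes reached 1 FPKM. The base libraries were unlike each other in their levels of cartilage genes. Col2a1, the main collagen of cartilage, was at 163, 2292 and 268 FPKM in control base replicates 1, 2 and 3, at 583, 1146 and 1114 FPKM in the MCAGF8 vault and at 373, 462 and 421 FPKM in the control vault. Replicates 1 and 3, although labelled cranial base, thus had less Col2a1 than each control vault library, and replicate 2 had more than each other library. The summed FPKM of 20 cartilage genes ranged from 1299 to 12300 in the base, from 3853 to 6686 in the MCAGF8 vault and from 2709 to 3811 in the control vault. Fgf8 itself was at 9.43 to 19.5 FPKM in the MCAGF8 vault and at 3.01 to 13.5 FPKM in the control vault and did not differ in the limma fit (adjusted p = 0.969).

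Genes were tested with limma on log2(FPKM + 1) over 18714 genes, and a gene was called when its p was under 0.05 before and under 0.1 after Benjamini-Hochberg adjustment. Differences are given on that log2 scale, which understates the change of genes near 0, whereas folds are ratios of mean FPKM. The 3 comparisons share libraries with each other. They also share 1 estimate of the spread per gene, so a wide spread in the base widens the interval between the vaults too.

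Col10a1, the type X collagen that defines hypertrophic cartilage, was at 115, 658 and 74.2 FPKM in control base replicates 1, 2 and 3, at 0.435, 0.346 and 0.438 FPKM in the MCAGF8 vault and at 2.05, 0.945 and 1.46 FPKM in the control vault. No value was shared between the 3 ranges, with the MCAGF8 vault lowest, the control vault next and the base highest. Col10a1 fell by 6.99 (SE 0.65) on the log2 scale in the MCAGF8 vault against the base (95% interval -8.46 to -5.53, adjusted p = 0.00171, limma), a 696-fold ratio of mean FPKM, or 233-fold without base replicate 2. The base was higher than the control vault by 6.20 on the log2 scale (SE 0.65, adjusted p = 0.00386, limma), a 190-fold ratio, or 63.7-fold without base replicate 2. Between both vaults the mean was 3.66-fold lower in the mutant and the ranges did not overlap, but the log2 difference of -0.80 did not pass (95% interval -2.27 to 0.67, adjusted p = 0.969, limma). The SE of 0.65 was the same here and reflects the spread of the base as well. The lack of a call held in all 18 alternatives, where the lowest adjusted p was 0.179 (limma), and does not show that the vaults are alike.

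Snorc encodes a small proteoglycan of chondrocytes. It was at 199, 367 and 150 FPKM in the base, at 7.93, 13.9 and 26.7 FPKM in the MCAGF8 vault and at 25.7, 47.5 and 22.5 FPKM in the control vault. The base stood above both vaults, whose ranges overlapped. Snorc fell by 3.85 on the log2 scale in the MCAGF8 vault against the base (SE 0.46, adjusted p = 0.00411, limma), a 14.8-fold ratio. It was 7.49-fold higher in the base than in the control vault, a log2 difference of 2.84 (SE 0.46, adjusted p = 0.0214, limma), and this call was lost without control vault replicate 3 (adjusted p = 0.111) and without moderation of the variances (adjusted p = 0.123). Between the vaults Snorc had a log2 difference of -1.01 (95% interval -2.05 to 0.03, adjusted p = 0.804, limma), which did not pass.

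Mmp13 encodes a collagenase that late hypertrophic chondrocytes and osteoblasts use to clear cartilage matrix. It was at 4.10, 2.39 and 13.9 FPKM in the base, at 0.0618, 0.182 and 0.0942 FPKM in the MCAGF8 vault and at 4.46, 1.54 and 3.27 FPKM in the control vault. Unlike Col10a1, Mmp13 overlapped between both control tissues, and the mutant vault lay below each of them. Mmp13 fell by 2.52 on the log2 scale in the MCAGF8 vault against the base (SE 0.50, adjusted p = 0.0215, limma), a 60.2-fold ratio of means, or 28.8-fold without base replicate 3, the highest. The call was lost without moderation (adjusted p = 0.105). Against the control vault the mutant mean was 27.4-fold lower with no overlap, but the log2 difference of -1.81 did not pass (95% interval -2.93 to -0.69, adjusted p = 0.293, limma). It passed with a pseudocount of 0.1, where the difference was -3.82 (adjusted p = 0.0599), with only the libraries of both vaults in the fit (adjusted p = 0.0832) and without base replicate 3 (adjusted p = 0.0968). The control base and the control vault differed by 0.71 (95% interval -0.41 to 1.82, adjusted p = 0.691, limma), with the base mean 2.20-fold higher, or 1.05-fold without base replicate 3.

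Panx3 encodes a channel protein of prehypertrophic chondrocytes and osteoblasts. It was at 48.4, 117 and 84.8 FPKM in the base, at 9.58, 9.97 and 12.1 FPKM in the MCAGF8 vault and at 103, 51.9 and 124 FPKM in the control vault. Both control tissues covered the same range and each of their libraries was above each mutant library. Panx3 fell by 2.79 on the log2 scale in the MCAGF8 vault against the base (SE 0.37, adjusted p = 0.00584, limma), a 7.90-fold ratio. Alone among the members, Panx3 also passed against the control vault, where it fell by 2.94 (SE 0.37, adjusted p = 0.0316, limma), an 8.81-fold ratio. This second call was lost when MCAGF8 replicate 1, 2 or 3 was left out (adjusted p = 0.162, 0.112 and 0.105), when control vault replicate 1 or 3 was left out (adjusted p = 0.163 and 0.139) and without moderation (adjusted p = 0.207), while the difference stayed between -3.31 and -2.69. The control base and control vault differed by -0.15 (95% interval -0.99 to 0.68, adjusted p = 0.963, limma).

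**Figure D1:**
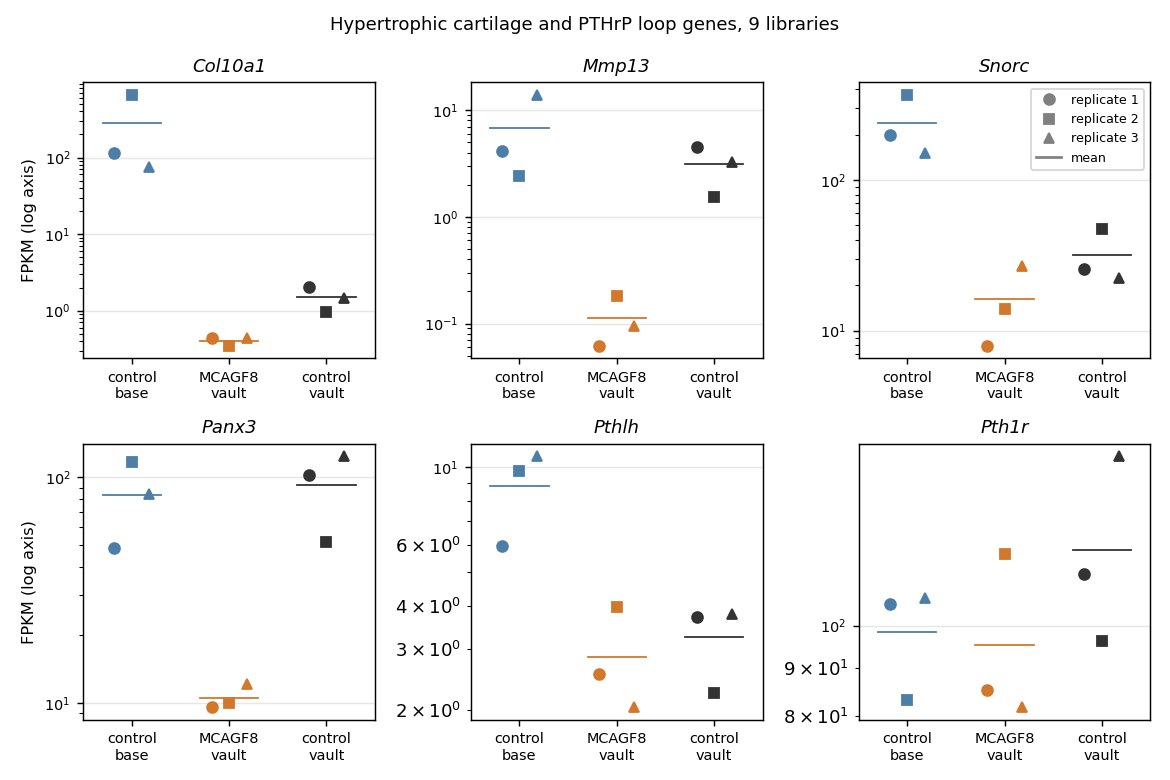
FPKM on a log axis of each member in the 9 libraries, by tissue; the marker shape gives the replicate number and the line the group mean. Col10a1 spans from 0.346 to 658 FPKM and separates all 3 tissues, Panx3 and Mmp13 are low in the MCAGF8 vault alone, and Pth1r lies between 81.7 and 152 FPKM in every library.

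The ligand and the receptor of the PTHrP loop behaved unlike each other. Pthlh, the ligand, was at 5.94, 9.76 and 10.8 FPKM in the base, at 2.55, 3.96 and 2.04 FPKM in the MCAGF8 vault and at 3.72, 2.25 and 3.78 FPKM in the control vault. Base libraries were above all vault libraries, and the vaults overlapped. Pthlh fell by 1.35 on the log2 scale in the MCAGF8 vault against the base (SE 0.30, adjusted p = 0.0332, limma), a 3.10-fold ratio, but not without MCAGF8 replicate 1 (adjusted p = 0.142) or replicate 3 (adjusted p = 0.125). It was 2.72-fold higher in the base than in the control vault, a log2 difference of 1.20 (SE 0.30) that lay near the threshold (adjusted p = 0.0938, limma) and missed it under 14 of 17 alternatives, with adjusted p between 0.0467 and 0.285. The vaults differed by -0.15 (95% interval -0.82 to 0.52, adjusted p = 0.979, limma).

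Pth1r, the receptor for PTHrP and parathyroid hormone, was at 105, 83.1 and 107 FPKM in the base, at 85.2, 119 and 81.7 FPKM in the MCAGF8 vault and at 114, 96.3 and 152 FPKM in the control vault. All 3 tissues overlapped. In no comparison did the receptor pass: the log2 difference was -0.06 between the MCAGF8 vault and the base (95% interval -0.57 to 0.45, adjusted p = 0.929, limma), -0.33 between the vaults (95% interval -0.84 to 0.18, adjusted p = 0.969) and -0.27 between the base and the control vault (95% interval -0.79 to 0.24, adjusted p = 0.775). The sign of the first of these turned under other scalings. On the FPKM scale, which is per length, Pth1r led the members in the MCAGF8 vault at a mean of 95.4 ± 20.8 (SD, n = 3), ahead of Snorc (16.2 ± 9.60) and Panx3 (10.6 ± 1.36), which overlapped, then Pthlh (2.85 ± 0.99), Col10a1 (0.406 ± 0.052) and Mmp13 (0.113 ± 0.062), each apart from its neighbours.

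The order of the mean levels was another in each control tissue. In the control base, by the mean of 3 libraries, it ran from Col10a1 (283 ± 326 FPKM, SD, n = 3) and Snorc (239 ± 113) through Pth1r (98.5 ± 13.4) and Panx3 (83.3 ± 34.2) to Pthlh (8.83 ± 2.55) and Mmp13 (6.79 ± 6.20). Col10a1 and Snorc overlapped across libraries, as did Pth1r and Panx3, and Pthlh and Mmp13, and Col10a1 also overlapped Pth1r and Panx3, whereas Snorc lay above Pth1r and Panx3 above Pthlh in every library. The first place of Col10a1 rested on replicate 2, without which its mean was 94.7 FPKM, below Snorc at 175 and Pth1r at 106. In the control vault Pth1r (121 ± 28.6 FPKM) and Panx3 (92.9 ± 37.0) led with overlapping values, followed by Snorc (31.9 ± 13.6), and Pthlh (3.25 ± 0.87), Mmp13 (3.09 ± 1.47) and Col10a1 (1.49 ± 0.56) came last, Pthlh and Col10a1 without overlap and Mmp13 overlapping both.

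Of the 6 members, 5 were called in the MCAGF8 vault against the control base, all lower, beside 8.39% of all tested genes called and 5.41% called lower. The same 5 did not overlap between groups and were lower in the mutant, beside 13% of all genes. Between the control base and the control vault 3 members, Col10a1, Snorc and Pthlh, were called, all higher in the base, beside 3.06% of genes called and 1.85% called higher, and these 3 did not overlap, beside 8.86% of genes. Between the vaults 1 member, Panx3, was called, lower in the mutant, beside 0.604% of genes called and 0.374% called lower. Here 3 members (Col10a1, Mmp13 and Panx3) did not overlap and were lower in the mutant, beside 9.35% of genes. The median log2 difference of the members was -2.65, 0.95 and -0.91 in these comparisons, against -0.07, 0.07 and -0.01 over all tested genes. Col10a1, Snorc and Panx3 kept their calls for the MCAGF8 vault against the base under all 18 alternatives tried. The members were chosen with earlier results of these data known, so these counts are not independent evidence.

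**Figure D2:**
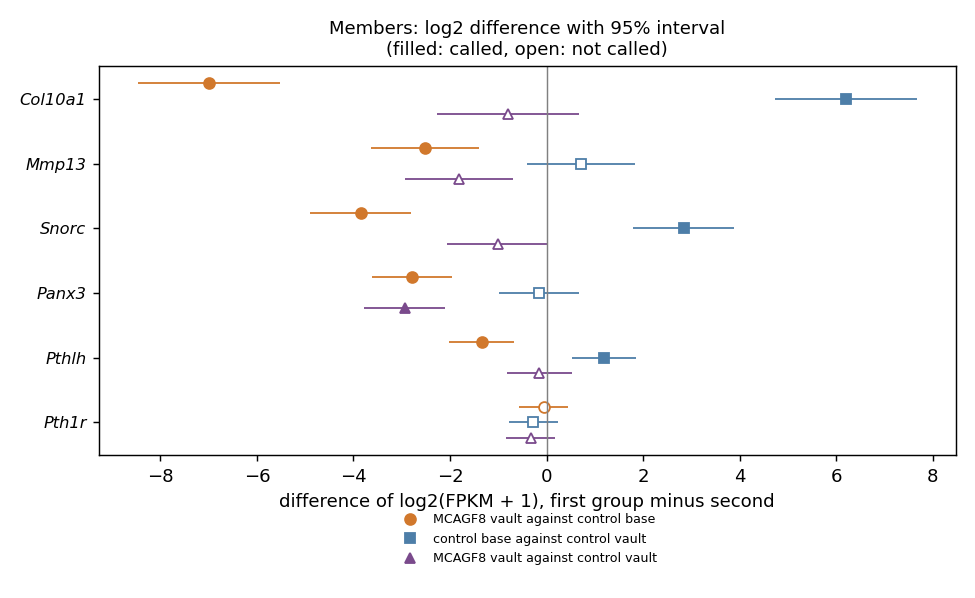
Difference of log2(FPKM + 1) for each member in the 3 comparisons, first group minus second, with the 95% interval from limma as a bar; filled symbols were called and open symbols were not. The MCAGF8 vault lies to the left of 0 against the base for 5 members, from -6.99 for Col10a1 to -1.35 for Pthlh, and Pth1r sits at -0.06.

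Because the base libraries differed so much in Col2a1, each member was also divided by the Col2a1 FPKM of its own library. Col10a1 was then at 0.708, 0.287 and 0.277 in the base, at 0.000746, 0.000302 and 0.000393 in the MCAGF8 vault and at 0.0055, 0.00205 and 0.00348 in the control vault. The ranges remained apart, and the mean ratio was 883-fold higher in the base than in the MCAGF8 vault. Snorc per unit of Col2a1 was at 1.22, 0.16 and 0.56 in the base and at 0.0136, 0.0121 and 0.024 in the MCAGF8 vault, a 39.1-fold difference of mean ratios without overlap, with the control vault between them at 0.069, 0.103 and 0.0533. Panx3 per unit of Col2a1 was at 0.297, 0.0509 and 0.316 in the base, at 0.0164, 0.0087 and 0.0109 in the MCAGF8 vault and at 0.276, 0.112 and 0.294 in the control vault. It was 18.5-fold lower in the mutant vault than in the base and 19-fold lower than in the control vault, and the mutant overlapped neither. In the tested form, these 3 members were lower in the MCAGF8 vault than in the base without overlap, beside 1.96% of the other genes tested. Each of these comparisons gave p = 0.1 in an exact two-sided permutation test of the log2 ratios, which is the smallest p that 3 libraries against 3 allow, so none could reach 0.05.

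For the other 3 members the base and the MCAGF8 vault overlapped in this test. Mmp13 per unit of Col2a1 was at 0.0251, 0.00104 and 0.0517 in the base and at 0.000106, 0.000159 and 8.45e-05 in the MCAGF8 vault. Although these ratios did not overlap, the tested form with 1 added to each FPKM did (exact permutation p = 0.2). Pthlh per unit of Col2a1 was at 0.0365, 0.00426 and 0.0402 in the base and at 0.00438, 0.00345 and 0.00183 in the MCAGF8 vault, so that base replicate 2 lay within the mutant range (exact permutation p = 0.2). For Pth1r the base ratios of 0.648, 0.0363 and 0.399 enclosed the mutant ratios of 0.146, 0.104 and 0.0733 (exact permutation p = 0.5). Against the control vault all 6 members were lower per unit of Col2a1 in the MCAGF8 vault without overlap (exact permutation p = 0.1 each), where Col2a1 itself was 2.26-fold higher in the mutant mean (adjusted p = 0.969, limma). Of all other tested genes, 73.1% were also lower without overlap when divided by Col2a1 in this comparison, so the count says little about the members. Sp7 was also used as the reference gene, a choice made after the data were seen. Between the vaults the mean ratio was then higher in the mutant for Col10a1, Snorc, Pthlh and Pth1r, where Sp7 itself was 5.22-fold lower. For Mmp13 the mean ratio was 5.32-fold lower in the mutant without overlap, although the tested form, with 1 added to each FPKM, was positive. Against the base the mean ratio to Sp7 was 2.17-fold higher in the MCAGF8 vault for Pth1r. It was lower there for the other members, from 1.41-fold for Pthlh to 414-fold for Col10a1.

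**Figure D3:**
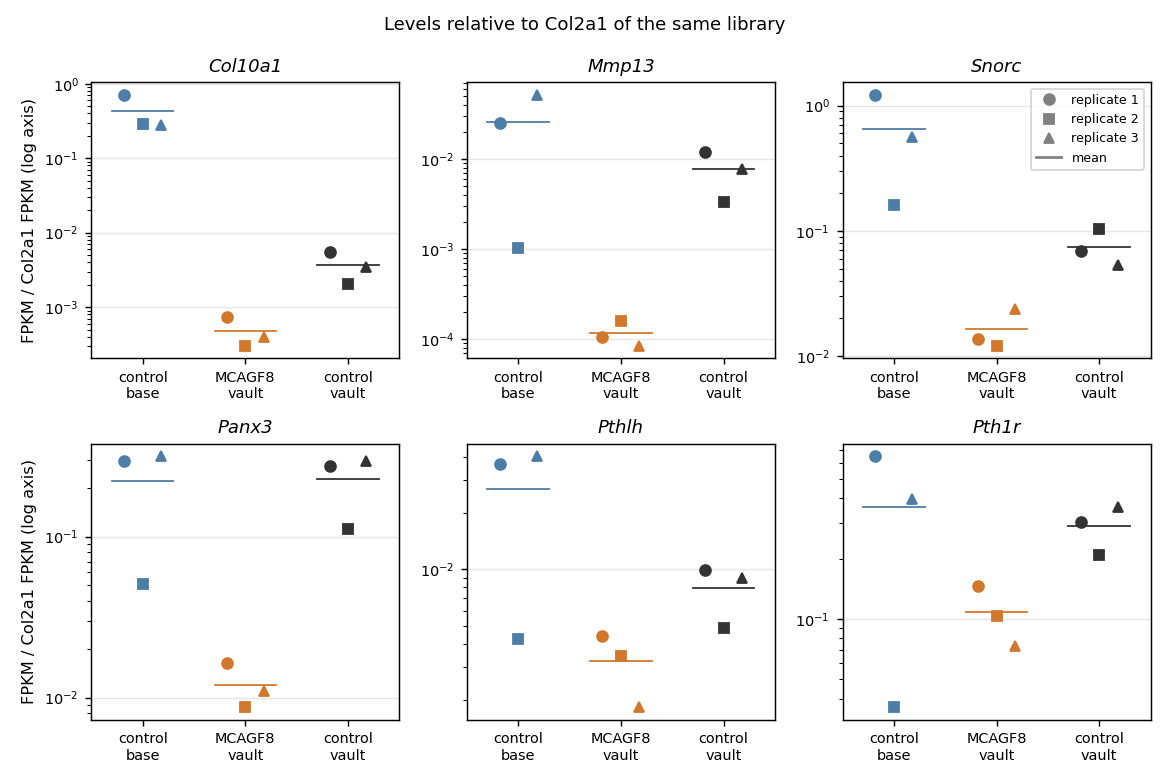
FPKM of each member divided by the Col2a1 FPKM of the same library, on a log axis, by tissue, with marker shapes for replicates and a line at the group mean. For Col10a1 the ratios run from 0.277 to 0.708 in the base and from 0.000302 to 0.000746 in the MCAGF8 vault, while base replicate 2 is the lowest base value for Mmp13, Snorc, Panx3, Pthlh and Pth1r.

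Panx3 was set beside Sp7 (osterix), a transcription factor of osteoblasts and prehypertrophic chondrocytes, the pair also being chosen after the data were seen. Sp7 was at 37.4, 26.9 and 80.5 FPKM in the base, at 17.5, 20.6 and 16.0 FPKM in the MCAGF8 vault and at 105, 55.4 and 123 FPKM in the control vault. In the control vault Panx3 had nearly the same FPKM as Sp7 in each library, with ratios of 0.981, 0.937 and 1.01. The ratios were 0.548, 0.483 and 0.754 in the MCAGF8 vault and 1.3, 4.34 and 1.05 in the base. No ratio overlapped between tissues (exact permutation p = 0.1 for each comparison, the smallest possible). Sp7 itself fell by 2.25 on the log2 scale in the MCAGF8 vault against the control vault (SE 0.40, adjusted p = 0.0763, limma). This call was lost in 9 of 18 alternatives. The Sp7 difference of -1.23 from the base did not pass (adjusted p = 0.127, limma).

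**Figure D4:**
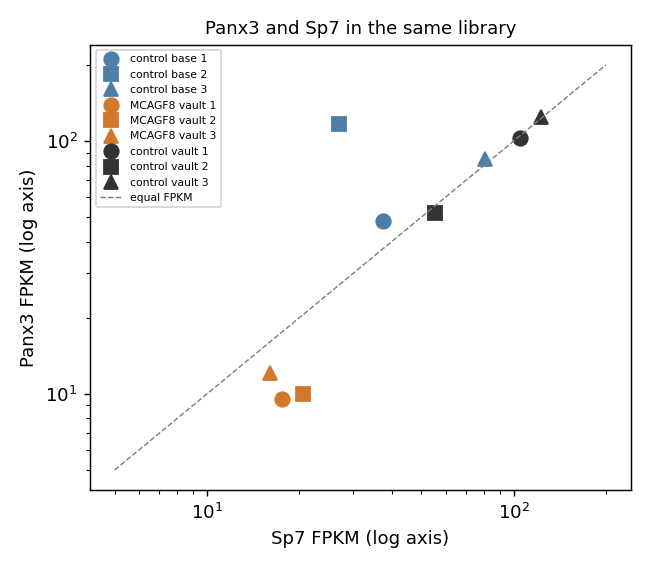
Panx3 FPKM against Sp7 FPKM in each library, both on log axes, with colour for tissue, shape for replicate and a dashed line where both are equal. The 3 control vault libraries lie on the line, with Panx3 to Sp7 ratios of 0.937 to 1.01, the MCAGF8 vault lies below it and the base above it.

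Other genes of the PTHrP and Indian hedgehog pathways were taken from a list of 19 that excludes the members. In the MCAGF8 vault against the base 6 fell and 3 rose, beside 8.39% of all genes called and 5.41% called lower. The median log2 difference of the list was 0.02. The genes that fell included the ligand Ihh and the hedgehog targets Ptch1, Hhip and Gli1. Ihh was at 11.0, 23.0 and 8.75 FPKM in the base, at 0.911, 1.45 and 1.58 FPKM in the MCAGF8 vault and at 6.60, 3.78 and 7.23 FPKM in the control vault. The tissues did not overlap, and Ihh fell by 2.62 against the base (SE 0.36, adjusted p = 0.00662, limma), a 10.9-fold ratio; its difference of -1.55 from the control vault did not pass (adjusted p = 0.177). The study had also named Ihh from these libraries.

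Hhip, which encodes a protein that binds hedgehog ligands, fell by 1.76 against the base (adjusted p = 0.0113), Ptch1, the hedgehog receptor, by 1.70 (adjusted p = 0.0113) and Gli1, a transcription factor that hedgehog signaling switches on, by 1.40 (adjusted p = 0.0163, limma for each). The calls of Ihh, Ptch1 and Hhip held in all 18 alternatives and that of Gli1 in 17. Mef2c, a transcription factor that promotes hypertrophy, fell by 1.17 against the base (adjusted p = 0.0162) and by 1.19 against the control vault (adjusted p = 0.0768, limma), the one call of the list between the vaults, which was lost in 13 of 18 alternatives (adjusted p up to 0.417). Nkx3-2, a repressor of chondrocyte maturation, was higher in the base than in the control vault by 1.72 (adjusted p = 0.0342), the one call there, and fell by 1.26 in the MCAGF8 vault against the base (adjusted p = 0.0524, limma), a call lost in 8 of 17 alternatives. The genes that rose against the base were Zfp521, which acts downstream of PTHrP, by 1.05 (adjusted p = 0.0113), Gli2, the main activator of hedgehog targets, by 0.87 (adjusted p = 0.043) and the kinase gene Sik3 by 0.57 (adjusted p = 0.0997, limma), the last called in 6 of 18 alternatives. The Gli2 call was lost in 5 of 18 and that of Nkx3-2 between base and control vault in 4 of 17.

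**Figure D5:**
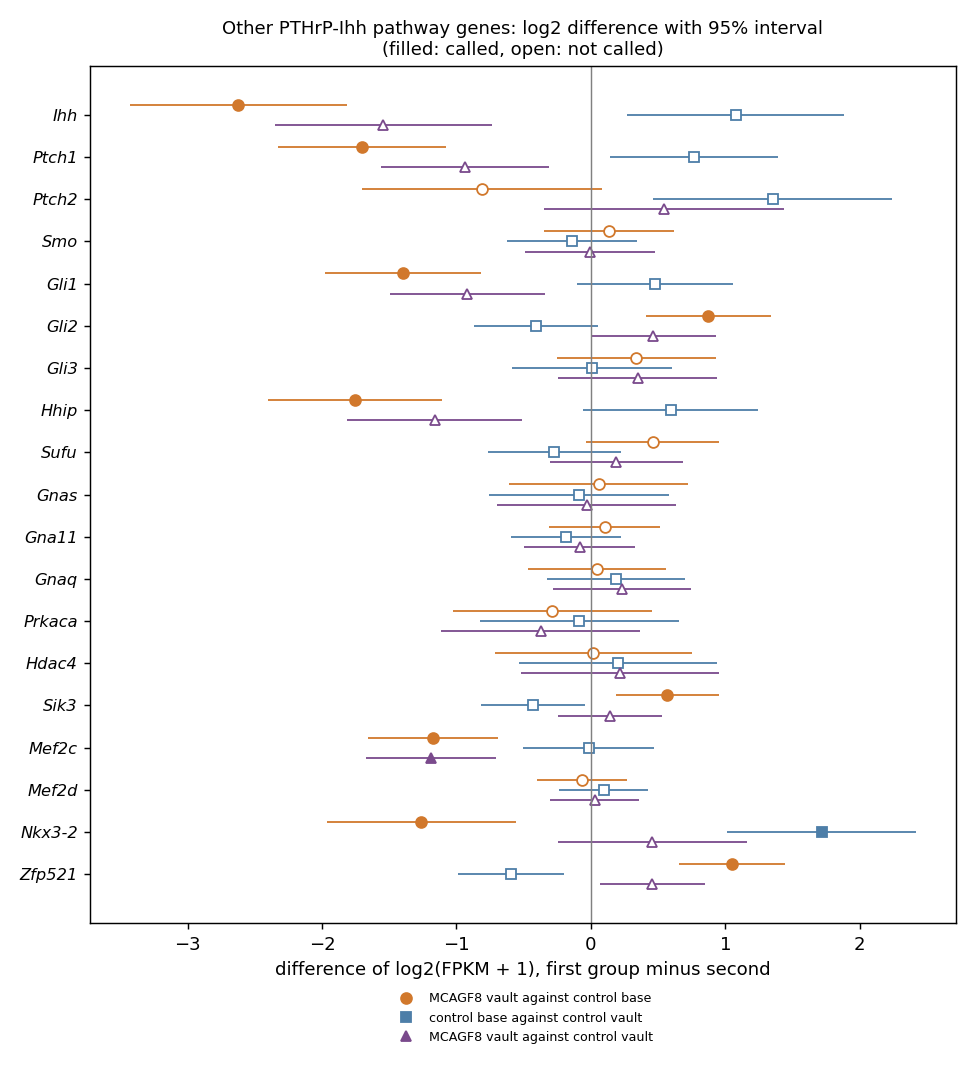
Difference of log2(FPKM + 1) for the 19 other PTHrP and hedgehog pathway genes in the 3 comparisons, first group minus second, with 95% intervals from limma; filled symbols were called. Against the base, Ihh at -2.62 and Hhip at -1.76 are the leftmost values of the MCAGF8 vault. Gnas, Gna11, Gnaq, Prkaca and Hdac4, which act below the receptor, have open symbols in each comparison. Zfp521, which acts downstream of PTHrP, is filled at 1.05 for the MCAGF8 vault against the base. Sik3 at 0.57 and Mef2c at -1.17 are filled there too.

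Among 18 further genes of hypertrophic cartilage and endochondral ossification, the median difference of the MCAGF8 vault from the base was -0.35. Of these 18, 6 fell and 1 rose, beside 8.39% of all genes called and 5.41% called lower. Besides Ihh and Mef2c, these were Ibsp (bone sialoprotein), which fell by 3.81 (adjusted p = 0.0113), Spp1 (osteopontin) by 2.87 (adjusted p = 0.0211), the mineralization enzyme gene Phospho1 by 2.30 (adjusted p = 0.0361) and the transcription factor Foxa2 by 1.34 (adjusted p = 0.0333), while the protease gene Mmp14 rose by 0.87 (adjusted p = 0.0677, limma). The study had named Ibsp and Spp1 too. Against the control vault 5 fell and none rose, beside 0.604% of all genes called and 0.374% called lower, with a median of -0.67. Here Ibsp fell by 5.81 (adjusted p = 0.0146), Spp1 fell by 5.01 (adjusted p = 0.0158), and Phospho1 fell by 3.79 (adjusted p = 0.0374, limma), and the other two were Sp7 and Mef2c. Ibsp and Spp1 are made by osteoblasts as well as hypertrophic cells, and unlike Col10a1 they were highest in the control vault, with mean FPKM of 1231 for Ibsp there against 342 in the base and 24.9 in the MCAGF8 vault. Between the base and the control vault Foxa2 was higher in the base by 1.72 (adjusted p = 0.0264) and Runx2, which drives both osteoblasts and hypertrophy, was lower by 0.91 (adjusted p = 0.0898, limma). That Runx2 call was lost in 12 of 18 alternatives and that of Foxa2 in 2 of 17. Against the base the call was lost in 10 of 18 for Mmp14, 4 of 18 for Phospho1, 4 of 17 for Foxa2 and 2 of 18 for Spp1. Between the vaults it was lost in 6 of 18 for Phospho1 and in 1 of 18 each for Ibsp and Spp1.

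The general cartilage genes were called at about the rate of all genes against the base. Of 20 genes of cartilage matrix and chondrocyte factors, 1 rose (Matn4, by 2.41, adjusted p = 0.0406) and 1 fell (Comp, by 3.03, adjusted p = 0.0653, limma) in the MCAGF8 vault against the base, beside 8.39% of all genes called. The call of Matn4 was lost in 6 of 18 alternatives and that of Comp in 7. Whether called or not, 16 of the 20 had a higher mean log2 level in the MCAGF8 vault than in the base, with a median difference of 0.55. Of these, Col11a1, Col11a2, Col27a1, Acan, Matn1, Matn3 and Cnmd had a lower mean FPKM in the MCAGF8 vault (ratios of 0.689 to 0.978). The list summed to 1299, 12300 and 1850 FPKM in base replicates 1, 2 and 3, so the direction depends on the scale. None of the 20 was called between the vaults, where 18 were higher in the mutant and the median was 0.67. Col2a1, Col9a3, Acan, Matn4, Sox9 and Sox5 were higher in the mutant there without overlap, and the others overlapped. The study reported Col2a1, Col9a3 and Sox9 as higher in the MCAGF8 vault from these libraries, and Sox9 also by in situ hybridization. For Col2a1 the SE between the vaults was 0.81 and reflects the spread of the base as well. The lack of a call therefore does not show that the vaults are alike. None of the 20 was called between the base and the control vault, where the median was 0.15. Col2a1 differed by 0.96 between the MCAGF8 vault and the base (95% interval -0.85 to 2.77, adjusted p = 0.561, limma), an interval that spans changes in both directions.

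Close relatives of the members were read to see whether a family moved. Of 9 such genes 4 had enough signal to be tested. Col8a2, which encodes a short-chain collagen related to type X, rose by 1.45 in the MCAGF8 vault against the base (adjusted p = 0.00979) and was lower in the base than in the control vault by 1.63 (adjusted p = 0.0127, limma), in both cases opposite to Col10a1. Its mean ratio to the base was 2.76 in the MCAGF8 vault, and it was at 153 to 217 FPKM in the base, 406 to 605 FPKM in the MCAGF8 vault and 524 to 614 FPKM in the control vault. Col8a1 was at 45.6 to 122 FPKM, Panx1 at 22.4 to 72.1 FPKM and Panx2 at 0.831 to 5.42 FPKM over all libraries, and none of them was called. Pth2r reached at most 0.686 FPKM, Mmp8 was too low to be tested, Pth, the other ligand of Pth1r, was listed at 0 in all libraries but control vault replicate 3 (0.0926 FPKM), and Mmp1a and Mmp1b were listed at 0 throughout.

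Other cell types differed between the tissues as well, and their part in the members' differences was not tested. Calls in these lists stand beside 8.39% of all tested genes against the base, 0.604% between the vaults and 3.06% between base and control vault. The 8 skeletal muscle genes summed to 1642 to 11160 FPKM in the base, 850 to 5576 FPKM in the control vault and 20.5 to 174 FPKM in the MCAGF8 vault. All 8 fell against the base, led by Mylpf, by 6.82 (adjusted p = 0.00782), Tnnc2 by 6.16, Myl1 by 5.94 and Acta1 by 5.65, and 7 of 8 fell against the control vault, where Mylpf fell by 5.44 (adjusted p = 0.0768), Tnnc2 fell by 5.05, Myl1 fell by 4.98 and Acta1 fell by 4.92 (limma). Between the vaults the call of Mylpf was lost in 10 of 18 alternatives and those of Tnnc2, Myl1 and Acta1 in 12. Muscle was lower in the mutant in the same comparisons as Panx3, and a link between both was not tested. In base replicate 1 and control vault replicate 2 the muscle sum was highest for the tissue (11160 and 5576 FPKM). There Panx3 was lowest for the tissue (48.4 and 51.9 FPKM). In the MCAGF8 vault replicate 3 had the most of both (174 and 12.1 FPKM). Snorc differed from Panx3 here: it was highest for the tissue in control vault replicate 2 (47.5 FPKM) and MCAGF8 replicate 3 (26.7 FPKM). In base replicate 1 it was between the others (199 FPKM). Over the 9 libraries, Pearson's r of log2(FPKM + 1) with Mylpf was 0.795 for Mmp13, 0.781 for Panx3 and 0.766 for Snorc. It was 0.6 for Col10a1, 0.479 for Pthlh and 0.199 for Pth1r.

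The 17 osteoblast genes summed to 2153 to 3978 FPKM in the base, 4783 to 5939 FPKM in the MCAGF8 vault and 7754 to 11810 FPKM in the control vault, and Bglap2 was listed at 0 in all MCAGF8 libraries. Against the base 5 fell, among them Ibsp, Spp1, Ifitm5 (by 2.41, adjusted p = 0.0392) and Phospho1, and 2 matrix genes that are also made outside bone rose, Col1a1 by 1.82 (adjusted p = 0.0188) and Sparc by 1.04 (adjusted p = 0.0964, limma). Of the 17, 7 fell and none rose against the control vault, among them Ibsp, Spp1, Dmp1 (by 4.69, adjusted p = 0.0723) and Ifitm5 (by 3.84, adjusted p = 0.0385), and 4 were lower and none higher in the base than in the control vault: Bglap2 by 2.72, Col1a1 by 2.30, Sparc by 1.59 and Runx2 (limma). Against the base the call was lost in 11 of 18 alternatives for Sparc, 3 for Ifitm5 and 1 for Col1a1. Between the vaults it was lost in 8 of 18 for Dmp1 and 6 of 18 for Ifitm5. Between base and control vault it was lost in 9 of 17 for Bglap2, 8 of 18 for Sparc and 1 of 18 for Col1a1. Osteoblasts express Panx3 and Mmp13 too. The 7 osteoclast genes, with Acp5 at 10.6 to 37.0 FPKM, had no call in any comparison.

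Epidermal genes, 10 in number, summed to 116 to 751 FPKM in the base, 412 to 1031 FPKM in the MCAGF8 vault and 34.2 to 116 FPKM in the control vault. Although the skin was peeled off, each MCAGF8 library thus had a higher epidermal sum than each control vault library. Between the vaults 9 of the 10 genes were higher in the mutant, with a median log2 difference of 2.41. How much skin remained in the tissue was not tested. Krt5 rose by 4.46 between the vaults (adjusted p = 0.0925), and Epcam fell by 2.49 against the base (adjusted p = 0.0306) and was higher in the base than in the control vault by 2.48 (adjusted p = 0.0604, limma); no other epidermal gene was called. Epidermis is also known to make PTHrP. Neuronal genes, of which 5 were in the table, summed to 166 to 565 FPKM in the base and 26.4 to 83.4 FPKM in the vaults, with Elavl3 (by 3.23), Snap25 (by 2.50) and Stmn2 (by 2.09) lower in the MCAGF8 vault than in the base and Stmn2 (by 2.95) and Snap25 (by 2.63) higher in the base than in the control vault. Erythroid genes summed to 4479 to 15620 FPKM over all libraries, and 2 of 6 rose against the base: Alas2 by 0.89, and Hba-a2 by 5.34, whose reads can be confused with those of Hba-a1. Of 5 endothelial genes, Cdh5 (by 0.90), Kdr (by 0.73) and Tek (by 0.72) rose against the base and Tek was lower in the base than in the control vault by 0.95, while Pecam1 was not called. Against the base, the calls of Kdr and Alas2 were lost in 12 of 18 alternatives and that of Stmn2 in 11. Those of Elavl3, Cdh5 and Hba-a2 were lost in 6, Tek in 5, Epcam in 3 and Snap25 in 2. The Krt5 call between the vaults was lost in 11 of 18. Between base and control vault the call of Epcam was lost in 8 of 18, and those of Stmn2, Snap25 and Tek in 6 of 18.

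Genes whose pattern was most like each member were sought by Pearson's r of log2(FPKM + 1) over the 9 libraries, among 13801 genes with a group mean of at least 5 FPKM. These values are descriptive, since the 9 points fall into 3 tissues. Nearest to Panx3 were Sgms2 (r = 0.995), Smpd3 (0.971) and Phex (0.949), and the means of Sgms2 were 38.5 FPKM in the base, 2.76 in the MCAGF8 vault and 50.2 in the control vault. Nearest to Col10a1 were Idi1 (0.964), Gm25776 (0.959) and Gdf5 (0.952), and nearest to Snorc were Asb4 (0.978), Cyp26a1 (0.958) and again Idi1 (0.952). For Mmp13 they were Tpd52 (0.98), Arhgdig (0.975) and Bcar3 (0.974), for Pthlh Fam189a2 (0.972), Frzb (0.97) and Ptprn (0.965), and for Pth1r Endog (0.972), Pkdcc (0.954) and Fuca1 (0.947).

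Among the members themselves the highest r were 0.943 between Col10a1 and Snorc, 0.888 between Col10a1 and Pthlh and 0.821 between Mmp13 and Panx3. Pth1r had an r of -0.21 with Col10a1 and with Snorc and of 0.08 with Pthlh. By this measure Col10a1, Snorc and Pthlh, highest in the base, formed one pattern, and Mmp13 and Panx3, lowest in the MCAGF8 vault and overlapping between both control tissues, another. These patterns were only partly apart. Mmp13 had an r of 0.717 with Pthlh, 0.624 with Snorc and 0.59 with Col10a1. Panx3 had 0.558, 0.602 and 0.548 with the same genes. Within the first pattern, Snorc and Pthlh had 0.787.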

How the data were processed

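RNA was extracted by the authors from E14.5 cranial vault and cranial base, made into stranded mRNA libraries, sequenced as single-end reads, mapped with gSNAP and turned into expression values with Cufflinks. The table deposited holds FPKM for each Ensembl gene in 9 libraries, 3 per group. The sources used here give no genome build, annotation, program version or read number, so precision is given as the spread of 3 pools. The authors tested by ANOVA in R.

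From these FPKM, 63 repeated identifiers were summed, and 9 genes with a placeholder value in 17 cells were left out. Genes whose mean FPKM reached 0.5 were fitted on log2(FPKM + 1) with limma 3.58.1 in R 4.3.3 (trend, 1 mean per group, all 9 libraries, two-sided) and called when p was under 0.05 before and under 0.1 after Benjamini-Hochberg adjustment. The fit was tested on simulated data. Ratios to Col2a1 were compared by exact permutation tests on log2 values with 1 added to each FPKM. Tables were made with Python 3.11.15, pandas 2.3.3, numpy 2.4.6 and scipy 1.17.1, and plots with matplotlib 3.10.9. Gene positions are from GENCODE on GRCm38, and promoter sequences, found for 4 of 6 members, from RefSeq on GRCm38.p6.

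The members and the lists (PTHrP and hedgehog pathway, hypertrophic cartilage, cartilage matrix, osteoblast, close relatives, epidermis, osteoclast, muscle, erythroid, neuron, endothelium) were chosen with earlier results of these data known. Genes named were the members, the relatives, the first gene of each list, at most 4 called genes of each list with the largest difference per comparison, and the 3 genes nearest in pattern to each member; other called list genes, overlapping genes and Fgf8 were added after their values were seen. Alternatives were a pseudocount of 0.1, other filters, rescaling to a sum of 1000000, quantile normalization, a fit restricted to the groups compared, a replicate block, no moderation, the highest of repeated identifiers, Acan or Sp7 in place of Col2a1, and each library left out in turn.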

Additional observations from a re-analysis of the deposited data

How the results depend on the processing

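Of 318 log2 differences of the members under the alternatives, 282 kept their direction and call; for the ratios to Col2a1, none of which could pass at this size, 150 of 162 kept their direction. Sp7 as the reference was chosen after the data were seen. Genes called for the MCAGF8 vault against the base, 1571, became 834 at a mean FPKM of at least 5 (with 3 of the 4 members left to test), 875 with only the libraries compared, 918 with the replicate block, 869 without moderation and 559 to 4580 with a library left out, the most without base replicate 2 and the fewest without MCAGF8 replicate 1; members called were 4 to 5. For the base against the control vault, 573 became 291, 108, 234 and 257 in that order (1 member without moderation) and 132 to 1322 with a library left out, with 1 to 3 members; leaving out base replicate 2 gave the most and control vault replicate 3 the fewest. Between the vaults, 113 became 191 with a pseudocount of 0.1 (2 members), 66 without a filter, 71 at a mean FPKM of at least 5, 174 with only the libraries compared (2 members), 19 with the replicate block, 0 without moderation (0 members; 1223 genes at an unadjusted p under 0.05) and 11 to 231 with a library left out, with 0 to 2 members. Deviations of same-numbered libraries from their group means had correlations of -0.549 to 0.37. For the base and the control vault, which can share embryos, these were -0.409, 0.0003 and 0.24 for replicates 1, 2 and 3. With 3 pools per group they cannot show whether the replicate numbers pair the libraries. Among the members the replicate block ended the Pthlh call between base and control vault alone. Rescaling moved the median of all genes by 0.18 (sum) and 0.15 (quantile) for the MCAGF8 vault against the base, by -0.11 (quantile) for the base against the control vault and by 0.14 (sum) between the vaults; the share of calls that were higher went from 35.5% to 48.3% (sum) and 58.8% (quantile) in the first and from 60.6% to 37.8% (quantile) in the second. Small differences that turned sign were Pth1r against the base (0.15 rescaled to a sum, 0.038 by quantile, 0.01 without base replicate 3, 0.01 without MCAGF8 replicate 1 and 0.042 without replicate 3, with -0.23 to 0.042 over all libraries left out), Panx3 between base and control vault (0.19 without base replicate 1, 0.10 without control vault replicate 3, from -0.52) and Pthlh between the vaults (-0.35 to 0.0046, the latter without MCAGF8 replicate 3). Per unit of Col2a1, leave-one-out differences of the base from the control vault ran from -0.46 to 2.15 for Mmp13 (-0.05 without base replicate 1), -0.76 to 0.55 for Panx3 and -1.24 to 0.84 for Pth1r. With Sp7 as the reference the difference between the vaults became 1.45 for Col10a1, 0.44 for Mmp13 (through the 1 added to each FPKM; the plain ratio was 5.32-fold lower in the mutant), 1.24 for Snorc, 2.10 for Pthlh and 1.92 for Pth1r, that of base and control vault 0.87 for Panx3 and 0.75 for Pth1r, and that of the MCAGF8 vault and base 1.17 for Pth1r. None of the 65 calls of list genes turned sign, and 13, 0 and 1 of them held in every alternative against the base, between the vaults and between base and control vault. The cause of these changes was not tested. Unknown depth and 3 pools per group limit what can be seen for genes near 0, such as Col10a1 and Mmp13 in the MCAGF8 vault.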
